A study of Mus musculus with 4 samples.

Results

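Ribosome biogenesis factors of the nucleolus were followed in LSK cells, bone marrow cells sorted as Lin-, Sca-1+ and c-Kit+, a population that holds blood stem cells and early progenitors. The set was a list of 42 genes, found by the array platform's gene symbol, and for each gene the probe set naming that gene alone with the highest mean over the arrays was taken. Of the 42 genes, 40 were measured in this way, out of 14061 genes kept in all. Fbl, which encodes the methyltransferase fibrillarin, and Mrto4, a large-subunit factor, were on the array only in probe sets that name several genes, and they have no value here. All 40 measured members lay above the floor for dim signals (5.475 on the log2 scale, the median of all values) in every array, so none was kept only because it was high in some group.

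There were 4 Affymetrix arrays, 1 in each of 4 groups. Every group was of male mice of the C57/B6 background, 4 months of age. The groups were AMKO mice 8 days into the response to 5FU (5-fluorouracil, a single dose of 150 mg/kg), Ctrl mice at the same day and dose, AMKO mice at day 0, called Basal, and Ctrl mice at day 0. AMKO and Ctrl are used as the labels give them, since the labels do not say which gene or allele they stand for, nor how many mice gave the cells of an array. 5FU is a pyrimidine analog that kills dividing cells, and the series describes the dose as a way of activating stem cells. Dose and day go together in these groups, so their parts cannot be told apart. A split by time below is one between the 5FU and the Basal arrays. With 1 array in a group there is no replicate error, and the differences between a pair of arrays below are given without a test.

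Ribosomes are built in the nucleolus. RNA polymerase I (Pol I) copies a long precursor RNA from the ribosomal DNA repeats, small nucleolar ribonucleoproteins (snoRNPs) methylate it or turn chosen uridines into pseudouridine, and large sets of assembly factors fold and cut it into the RNAs of the small and the large subunit. Cells that leave rest and start to grow and divide need more of this machinery, and quiescent blood stem cells are known for low protein synthesis. The members are ordered here as Pol I and its partner (4 genes), snoRNP proteins (9 genes), factors of the small subunit (13 genes), factors of the large subunit (13 genes) and nucleolar proteins that act at several steps (3 genes). Some of the factors are known mainly from work in yeast, and their class follows that work.

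The DNA before the start of transcription is shown for the 4 members with a promoter entry that had the largest mean 5FU difference over the genotypes (the values follow further down). The sequences come from RefSeq, build GRCm38.p6, and run from 250 bases before the start up to the start. Capitals mark CGGAAG or its reverse complement CTTCCG, letters found in sites of ETS-family transcription factors.
Nhp2: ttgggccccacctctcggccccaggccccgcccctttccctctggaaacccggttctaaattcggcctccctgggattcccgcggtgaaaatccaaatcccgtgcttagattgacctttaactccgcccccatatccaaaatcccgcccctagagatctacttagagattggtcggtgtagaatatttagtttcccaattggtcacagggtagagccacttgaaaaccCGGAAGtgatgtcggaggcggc
Gar1: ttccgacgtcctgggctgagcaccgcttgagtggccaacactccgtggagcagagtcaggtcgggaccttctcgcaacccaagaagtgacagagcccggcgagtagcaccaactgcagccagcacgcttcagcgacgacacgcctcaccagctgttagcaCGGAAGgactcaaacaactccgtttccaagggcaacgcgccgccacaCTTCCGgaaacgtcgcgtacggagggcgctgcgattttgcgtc
Nolc1: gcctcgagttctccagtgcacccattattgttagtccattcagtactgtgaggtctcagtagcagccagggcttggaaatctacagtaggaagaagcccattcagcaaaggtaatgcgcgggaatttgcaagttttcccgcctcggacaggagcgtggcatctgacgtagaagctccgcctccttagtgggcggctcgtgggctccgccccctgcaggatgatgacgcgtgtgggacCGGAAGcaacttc
Ddx21: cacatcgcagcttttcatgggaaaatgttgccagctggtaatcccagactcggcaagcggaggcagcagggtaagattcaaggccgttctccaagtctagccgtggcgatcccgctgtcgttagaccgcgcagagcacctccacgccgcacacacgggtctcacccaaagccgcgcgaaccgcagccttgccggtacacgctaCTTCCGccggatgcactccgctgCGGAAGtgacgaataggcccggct
They lie at chr11:51619523-51619772 on the plus strand for Nhp2, chr3:129831397-129831646 on the minus strand for Gar1, chr19:46075597-46075846 on the plus strand for Nolc1 and chr10:62602299-62602548 on the minus strand for Ddx21. The marked letters begin 22 bases before the start in Nhp2 and 13 before it in Nolc1. Gar1 has them 90 and 43 bases before the start, and Ddx21 24 and 47 bases before it.

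Promoter entries were found for 36 of the 42 listed genes. Over these 250 bases and on both strands, 15 of the 36 genes (41.7%) held CGGAAG, against 15.3% of all 27025 genes with an entry. The longer CCGGAAGT, which contains it, was found in 7 genes (19.4%) against 3.23% of all. The windows of these genes had a median GC content of 57.8%, and all windows one of 52.4%, and the part of base composition in these shares was not tested. Of the 8 motifs searched, CACGCG was in 5 genes (13.9%, against 8.65% of all), and none held CTCGCGAG (0.862% of all), the longer palindrome around it (0.448%), the NRF1 motif (0.877%) or the YY1 motif (0.141%). A match describes these letters and is not evidence of a bound site.

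CACGTG, the E-box recognized by Myc with Max and by other factors of that family, stood mostly after the start. It was in 3 of 36 genes (8.33%) before the start, against 6.86% of all genes, and in 6 (16.7%) within the 50 bases after it, against 1.28% of all. Within the same 50 bases, CACGCG was in 5 genes (13.9%, against 2.16% of all) and CGGAAG in 8 (22.2%, against 4.96%). CCGGAAGT was there in 1 gene (2.78%, against 1.08%). A higher share after the start was therefore not particular to the E-box, and the part of base composition there was not tested. The 9 E-box sites are shown with the E-box in capitals and up to 9 bases on each side.
Pes1: taggcagggCACGTGcgggaggaa
Wdr43: ccgggcgaaCACGTGgctgccgcg
Nle1: gttctcctcCACGTGgggacgcag
Ltv1: ctgtggaccCACGTGtggagctgc
Grwd1: ccggagtcgCACGTGtgaaaccgg
Utp20: cactaactaCACGTGaggaaaa
Utp18: agcgccggtCACGTGgcttgcggc
Nop2: tccctggatCACGTGtgttccggt
Imp4: gtcttagacCACGTGacatcccaa
The first base of the E-box is base 3 of the transcript in Pes1, base 18 in Wdr43, base 24 in Nle1, base 29 in Ltv1, base 35 in Grwd1 and base 38 in Utp20. In Utp18, Nop2 and Imp4 it lies 20, 60 and 121 bases before the start. In the order shown, the fragments lie at chr11:3963968-3963991 (plus strand), chr17:71616223-71616246 (plus), chr11:82908358-82908381 (minus), chr10:13193095-13193118 (minus), chr7:45830741-45830764 (minus), chr10:88826765-88826786 (minus), chr11:93885772-93885795 (minus), chr6:125131814-125131837 (plus) and chr1:34439699-34439722 (plus). Genes with this E-box lay at both ends of the 5FU differences: Nle1 was the lowest of the 40 members in both genotypes, and Utp18 had the third-highest difference in Ctrl.

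Markers of LSK and other cells were read in each array first. Kit, the receptor used for the sort, had log2 values of 11.16 in AMKO and 11.08 in Ctrl after 5FU, against 11.87 in AMKO and 11.84 in Ctrl at Basal. Ly6a, which encodes Sca-1, had no probe set of its own. The other 4 measured LSK markers had differences in both directions, of the same sign in the genotypes. Cd34 and Flt3, surface proteins of early progenitors, were higher after 5FU by 0.64 and 0.52 in AMKO and by 1.03 and 1.57 in Ctrl. Meis1 and Gata2, transcription factors of blood stem cells, had differences of -0.70 and -0.63 in AMKO and of -0.77 and -1.02 in Ctrl. The part of a shift among LSK cells in the 5FU differences below was not tested. The array of Ctrl mice after 5FU stood apart: the signal summed over 12 mature neutrophil genes was 9.09 in AMKO and 14.55 in Ctrl after 5FU on the log2 scale, against 8.81 in AMKO and 8.86 in Ctrl at Basal. All 12 neutrophil genes, among them Camp, Ltf and Ngp, were at least 2-fold higher after 5FU in Ctrl and 2 were in AMKO. The 8 granulocyte-monocyte genes summed to 9.54 in AMKO and 12.88 in Ctrl after 5FU, against 9.50 in AMKO and 9.27 in Ctrl at Basal. The 9 measured B-lineage genes summed to 9.36 in AMKO and 12.39 in Ctrl after 5FU, against 9.27 in AMKO and 9.28 in Ctrl at Basal. The Ctrl Basal array stood apart for 11 skeletal muscle genes, at 9.25 in AMKO and 9.73 in Ctrl after 5FU, against 9.38 in AMKO and 12.00 in Ctrl at Basal. For the 6 measured erythroid genes the median difference after 5FU was -0.165 in AMKO and 0.83 in Ctrl, where Slc4a1 (2.72) and Car1 (2.58) were highest. Their sum, 10.76 to 11.14 in the 4 arrays, was mostly Car2. Genes of T and NK cells summed to between 7.70 and 8.02. The pair of AMKO arrays shows neither excess, so each 5FU value is given in AMKO and in Ctrl. The part of these cells in the Ctrl values was not tested. In sorted bulk samples, fewer cells of a type and less RNA per cell cannot be told apart.

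**Figure D1:**
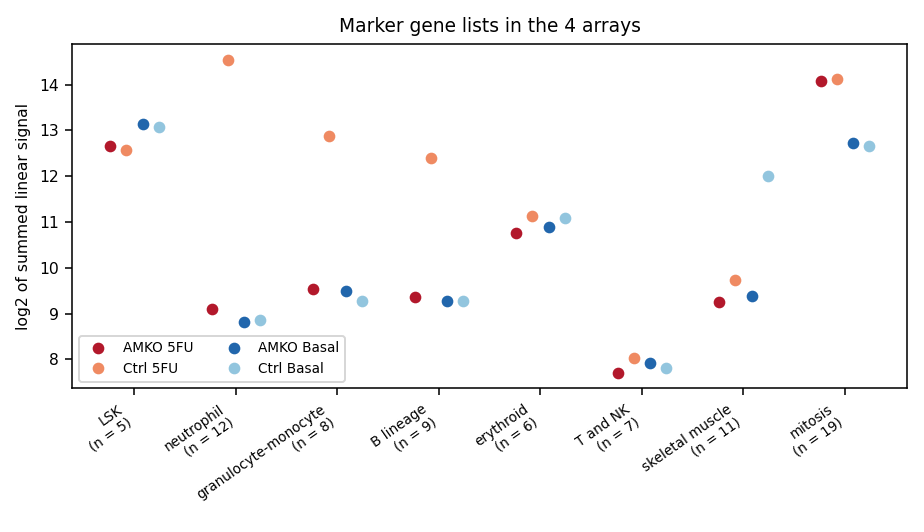
Log2 of the summed linear signal (vertical axis) of the measured genes of 8 marker lists (horizontal axis) in the 4 arrays, 1 point per array. Ctrl 5FU lies far above the other arrays for neutrophil (14.55), granulocyte-monocyte (12.88) and B-lineage genes (12.39), and Ctrl Basal for skeletal muscle genes (12.00), while mitosis genes are high in both 5FU arrays.

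How LSK cells 8 days after 5FU differed from Basal cells in these factors was read in each genotype. Most members were higher after 5FU, by modest amounts. The median log2 difference of the 40 members was 0.49 in AMKO and 0.32 in Ctrl, against 0.03 in AMKO and 0.01 in Ctrl over all 14061 genes. In AMKO 35 of 40 members were higher, where 52.3% of all genes were, and in Ctrl 36 of 40 were, where 50.1% of all genes were. In both genotypes 33 members were higher, against 37.0% of all genes. For 31 members both 5FU arrays lay above both Basal arrays, or 77.5%, against 32.0% of all genes. For Nle1 and Noc2l both lay below, against 27.7% of all genes. The 31 became 24 after quantile normalization and 32 after median centring, and the share of all genes under these scalings was not counted. Quantile normalization put 30 members and 51.6% of all genes higher in AMKO, and 33 members and 49.6% in Ctrl. Median centring put 37 members and 62.5% of all genes higher in AMKO, and 37 members and 54.4% in Ctrl. The members are bright on this platform, and all 40 reached the 75th percentile of all values (7.32) in at least 1 array. Among the 8228 genes that did so, 42.2% had both 5FU arrays above both Basal arrays, 60.3% were higher in AMKO and 55.4% in Ctrl, and the median differences were 0.14 in AMKO and 0.07 in Ctrl.

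Few of these differences were large. Rrs1 (2.27-fold) and Gar1 (2.01-fold) were at least 2-fold higher in AMKO, or 2 of 40 members, against 4.69% of all genes. The 2 became 7 after median centring, against 6.82% of all genes, and 1 after quantile normalization, against 3.96%. No member was at least 2-fold higher in Ctrl, against 5.02% of all genes, and none was at least 2-fold lower in either genotype (3.55% of all genes in AMKO and 4.46% in Ctrl). At 1.5-fold, 14 members were higher in AMKO, against 15.4% of all genes and 21.5% of the genes that reached the 75th percentile. In Ctrl 8 were, against 11.9% of all genes and 15.0% of those genes. None was 1.5-fold lower, against 10.5% of all genes in AMKO and 11.9% in Ctrl. The 6 members at least 1.5-fold higher in both genotypes were Nhp2, Nolc1, Ddx21, Gar1, Noc4l and Bop1, against 6.59% of all genes and 9.92% of the genes that reached the 75th percentile.

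**Figure D2:**
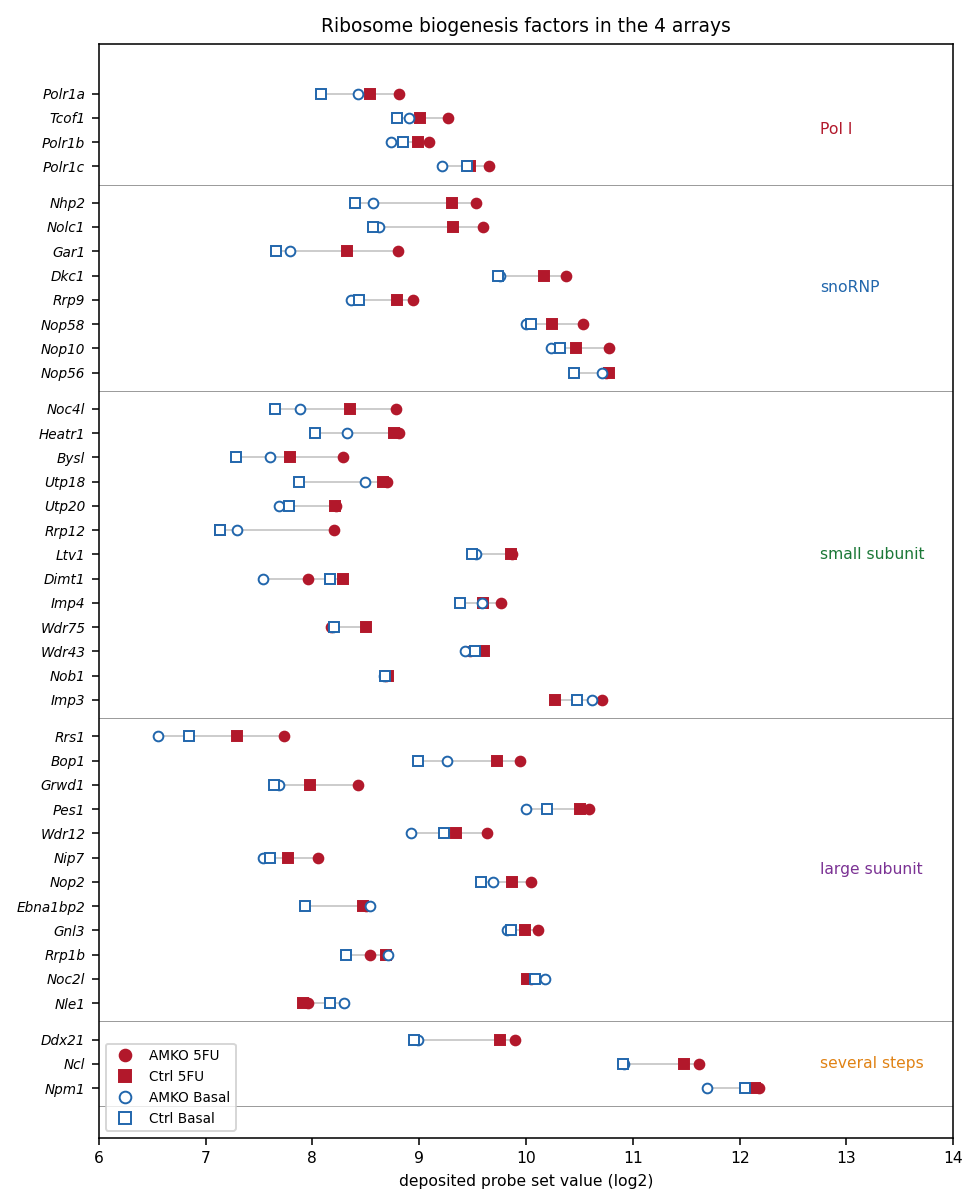
Deposited log2 value (horizontal axis) of each of the 40 members (rows, by class) in the 4 arrays, filled red for 5FU and open blue for Basal, circles for AMKO and squares for Ctrl, with a grey line over the range. Both red symbols lie to the right of both blue symbols for 31 members, and to the left for Noc2l and Nle1; in Rrp12 the open square of Ctrl Basal hides the filled one of Ctrl 5FU, at 7.13 each.

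Members at each step are described next, with 4 values each. An additive limma fit over the 4 arrays gave the 5FU effect averaged over the genotypes, with its standard error and a p-value adjusted by the Benjamini-Hochberg method over all 14061 genes. Its error has 1 residual degree of freedom, from how far apart the 5FU differences of AMKO and Ctrl lie, and is moderated by limma towards that of other genes (prior degrees of freedom 2.625). It passed 0 genes at an adjusted p of 0.05, or 0.0% of all genes, and so no member. At an unadjusted p of 0.05 it counted 18 members, all higher, or 45% of the members, against 15.7% of all genes that were higher at that level. With genes below the 75th percentile left out of the fit, 19 members (47.5%) were, against 23.9% of the 8228 genes left. After quantile normalization 15 members (37.5%) were, against 14.7% of all genes.

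Pol I subunits and their partner were slightly higher after 5FU, with median differences of 0.375 in AMKO and 0.18 in Ctrl, and all 4 had both 5FU arrays above both Basal arrays, Polr1c by only 0.03 and no longer after quantile normalization (-0.0875 in Ctrl). Polr1a, the largest subunit of the enzyme, was at 8.81 in AMKO and 8.54 in Ctrl after 5FU, against 8.43 in AMKO and 8.08 in Ctrl at Basal. Polr1b, the second-largest subunit, was at 9.09 in AMKO and 8.99 in Ctrl after 5FU, against 8.74 in AMKO and 8.85 in Ctrl at Basal. The lower 5FU array lay above the higher Basal array by 0.11 in Polr1a and by 0.14 in Polr1b. Polr1c, which Pol I shares with RNA polymerase III, was at 9.65 in AMKO and 9.48 in Ctrl after 5FU, against 9.21 in AMKO and 9.45 in Ctrl at Basal. Tcof1, which encodes treacle, a nucleolar scaffold that supports Pol I transcription, was at 9.27 in AMKO and 9.01 in Ctrl after 5FU, against 8.90 in AMKO and 8.79 in Ctrl at Basal. None of the 4 was 1.5-fold higher in either genotype. Averaged over the genotypes, Polr1a differed by 0.42 with a standard error of 0.13 (limma adjusted p 0.152), and the other 3 by 0.24 to 0.30 (limma adjusted p 0.236 to 0.400).

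Proteins of the snoRNPs were higher after 5FU in every measured case on the deposited values. Nop56 changed direction under 2 alternatives given with it. All 8 had both 5FU arrays above both Basal arrays, and the median differences were 0.595 in AMKO and 0.39 in Ctrl. The box H/ACA particles, which make pseudouridine, have 4 core proteins. Nhp2 was at 9.53 in AMKO and 9.31 in Ctrl after 5FU, against 8.57 in AMKO and 8.40 in Ctrl at Basal. Gar1 was at 8.80 in AMKO and 8.32 in Ctrl after 5FU, against 7.79 in AMKO and 7.66 in Ctrl at Basal. In both genes every 5FU value lay at least 0.53 above every Basal value. Dkc1, the pseudouridine synthase dyskerin, was at 10.37 in AMKO and 10.17 in Ctrl after 5FU, against 9.76 in AMKO and 9.74 in Ctrl at Basal. Nop10, the smallest of the 4, was at 10.78 in AMKO and 10.47 in Ctrl after 5FU, against 10.23 in AMKO and 10.32 in Ctrl at Basal. Dkc1 was separated by a clear gap, and Nop10 in Ctrl by little. These proteins also form part of telomerase. The H/ACA medians were 0.785 in AMKO and 0.545 in Ctrl, and those of the 3 measured proteins of box C/D particles, whose snoRNAs guide methylation or, for U3, act in cutting the precursor, were 0.53 in AMKO and 0.33 in Ctrl.

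Among box C/D proteins, Nop58, a core protein, was at 10.53 in AMKO and 10.24 in Ctrl after 5FU, against 10.00 in AMKO and 10.05 in Ctrl at Basal. Its paralog Nop56 was at 10.75 in AMKO and 10.78 in Ctrl after 5FU, against 10.71 in AMKO and 10.45 in Ctrl at Basal, and the AMKO arrays were nearly equal. A further pair of probe sets names Nop56, and 1 of these was lower after 5FU, most of all in Ctrl (8.12 in AMKO and 7.81 in Ctrl after 5FU, against 8.18 in AMKO and 8.30 in Ctrl at Basal). The mean of the 3 probe sets turned its Ctrl difference to -0.0167, so its direction in Ctrl depended on the probe set. Its AMKO difference was -0.17 after quantile normalization. Rrp9, which binds the U3 snoRNA, was at 8.94 in AMKO and 8.79 in Ctrl after 5FU, against 8.36 in AMKO and 8.44 in Ctrl at Basal. Nolc1, a phosphoprotein that carries snoRNPs and binds Pol I, was at 9.60 in AMKO and 9.32 in Ctrl after 5FU, against 8.62 in AMKO and 8.57 in Ctrl at Basal. Nolc1 thus had a gap of 0.70 between the lower 5FU array and the higher Basal array. Averaged over the genotypes, the largest effects were 0.94 for Nhp2 (standard error 0.12, limma adjusted p 0.0732) and 0.86 for Nolc1 (0.13, limma adjusted p 0.0763).

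Small-subunit factors were higher after 5FU by a median of 0.34 in AMKO and 0.30 in Ctrl, and 8 of 13 had both 5FU arrays above both Basal arrays. Heatr1, Wdr43 and Wdr75 belong to the group of proteins that first binds the precursor RNA and also supports Pol I transcription. Heatr1 was at 8.81 in AMKO and 8.76 in Ctrl after 5FU, against 8.32 in AMKO and 8.02 in Ctrl at Basal. Wdr43 was at 9.48 in AMKO and 9.61 in Ctrl after 5FU, against 9.43 in AMKO and 9.52 in Ctrl at Basal. Wdr75 was at 8.17 in AMKO and 8.50 in Ctrl after 5FU, against 8.19 in AMKO and 8.20 in Ctrl at Basal. Heatr1 was separated by time, whereas the 4 values of Wdr43 spanned 0.18 and the AMKO values of Wdr75 were equal within 0.02.

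Utp18 and Utp20 are further parts of the small-subunit processome, the large particle that holds the precursor. Utp18 was at 8.70 in AMKO and 8.66 in Ctrl after 5FU, against 8.49 in AMKO and 7.87 in Ctrl at Basal. Utp20 was at 8.22 in AMKO and 8.21 in Ctrl after 5FU, against 7.69 in AMKO and 7.78 in Ctrl at Basal. The Ctrl Basal array was thus the low one for Utp18, while Utp20 split cleanly by time. Imp3 and Imp4 bind the U3 snoRNP. Imp3 was at 10.71 in AMKO and 10.27 in Ctrl after 5FU, against 10.62 in AMKO and 10.48 in Ctrl at Basal. Imp4 was at 9.77 in AMKO and 9.60 in Ctrl after 5FU, against 9.59 in AMKO and 9.38 in Ctrl at Basal. Imp3 was lower in Ctrl after 5FU, and its second probe set, at 9.69 in AMKO and 9.16 in Ctrl after 5FU, against 9.32 in AMKO and 9.60 in Ctrl at Basal, was lower there too. Imp4 in AMKO was at -0.0075 after quantile normalization, so its AMKO direction depended on scaling.

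Noc4l, whose yeast counterpart is needed to mature the small subunit, showed the largest small-subunit difference common to both genotypes. It was at 8.78 in AMKO and 8.35 in Ctrl after 5FU, against 7.88 in AMKO and 7.65 in Ctrl at Basal, an average of 0.80 with a standard error of 0.14 (limma adjusted p 0.0834). Bysl, which encodes bystin and is needed for the late nuclear steps, was at 8.29 in AMKO and 7.79 in Ctrl after 5FU, against 7.60 in AMKO and 7.28 in Ctrl at Basal. Both genes were separated by time, and in both the AMKO value was above the Ctrl value at each time. Rrp12, a transport and assembly factor, was at 8.20 in AMKO and 7.13 in Ctrl after 5FU, against 7.29 in AMKO and 7.13 in Ctrl at Basal. Its AMKO 5FU array alone was high and the Ctrl values were equal. Dimt1, which dimethylates adenosines of the small-subunit RNA, was at 7.96 in AMKO and 8.29 in Ctrl after 5FU, against 7.54 in AMKO and 8.16 in Ctrl at Basal, and was lower in AMKO than in Ctrl at both times. Ltv1, which in yeast leaves the particle late, was at 9.87 in AMKO and 9.86 in Ctrl after 5FU, against 9.53 in AMKO and 9.49 in Ctrl at Basal, and split cleanly by time. Nob1, the nuclease of the last cut, was at 8.69 in AMKO and 8.71 in Ctrl after 5FU, against 8.67 in AMKO and 8.68 in Ctrl at Basal, and its 4 values lay within 0.04.

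Large-subunit factors had median differences of 0.435 in AMKO and 0.30 in Ctrl, and were the most mixed class, with 8 of 12 measured members having both 5FU arrays above both Basal arrays and 2 having both below. Pes1, Bop1 and Wdr12 form the PeBoW complex, which is needed to process the precursor of the large subunit. Bop1 was at 9.94 in AMKO and 9.73 in Ctrl after 5FU, against 9.26 in AMKO and 8.99 in Ctrl at Basal. Pes1 was at 10.59 in AMKO and 10.51 in Ctrl after 5FU, against 10.00 in AMKO and 10.20 in Ctrl at Basal. Wdr12 was at 9.63 in AMKO and 9.34 in Ctrl after 5FU, against 8.92 in AMKO and 9.23 in Ctrl at Basal. All 3 split by time, Bop1 by at least 0.47 and Wdr12 in Ctrl by only 0.11. Bop1 averaged a difference of 0.71 with a standard error of 0.11 (limma adjusted p 0.0784).

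Nop2, an RNA methyltransferase and old proliferation antigen, was at 10.05 in AMKO and 9.87 in Ctrl after 5FU, against 9.69 in AMKO and 9.58 in Ctrl at Basal. Nip7, its partner in yeast, was at 8.05 in AMKO and 7.77 in Ctrl after 5FU, against 7.54 in AMKO and 7.60 in Ctrl at Basal. Both were above Basal in each genotype, by less in Ctrl. Rrs1, which in yeast brings the smallest RNA of the large subunit into the particle, was at 7.73 in AMKO and 7.29 in Ctrl after 5FU, against 6.55 in AMKO and 6.84 in Ctrl at Basal. It had the largest AMKO difference of all members (1.18, against 0.45 in Ctrl), and a second, dimmer probe set gave 0.39 in AMKO and -0.01 in Ctrl. The size of the Rrs1 difference therefore depended on the probe set. Gnl3, the GTPase nucleostemin, was at 10.11 in AMKO and 9.99 in Ctrl after 5FU, against 9.82 in AMKO and 9.86 in Ctrl at Basal. Grwd1, a histone-binding WD-repeat protein, was at 8.43 in AMKO and 7.98 in Ctrl after 5FU, against 7.69 in AMKO and 7.64 in Ctrl at Basal. Grwd1 and Gnl3 were separated by time, the Gnl3 values by 0.13.

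Another 4 large-subunit members did not follow the rest. Ebna1bp2 was at 8.50 in AMKO and 8.47 in Ctrl after 5FU, against 8.54 in AMKO and 7.93 in Ctrl at Basal, so that only the Ctrl Basal array was low. Rrp1b was at 8.54 in AMKO and 8.69 in Ctrl after 5FU, against 8.71 in AMKO and 8.31 in Ctrl at Basal, and was likewise lowest in Ctrl Basal. Noc2l, of the yeast complex that moves large-subunit precursors and in mammals also an inhibitor of histone acetylation, was at 10.05 in AMKO and 10.01 in Ctrl after 5FU, against 10.18 in AMKO and 10.08 in Ctrl at Basal. Nle1, the Notchless protein, which large-subunit maturation requires and which mouse blood stem cells are known to need, was at 7.96 in AMKO and 7.91 in Ctrl after 5FU, against 8.30 in AMKO and 8.16 in Ctrl at Basal. Both were lower at day 8 in each genotype, Nle1 by 0.34 in AMKO and 0.25 in Ctrl (average -0.295, limma adjusted p 0.252). The Noc2l differences were smaller, at -0.13 in AMKO and -0.07 in Ctrl (average -0.1, limma adjusted p 0.593).

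The abundant nucleolar proteins that act at several steps were all higher. Ncl, nucleolin, was at 11.62 in AMKO and 11.48 in Ctrl after 5FU, against 10.92 in AMKO and 10.91 in Ctrl at Basal. Ddx21, an RNA helicase, was at 9.90 in AMKO and 9.76 in Ctrl after 5FU, against 8.99 in AMKO and 8.95 in Ctrl at Basal. In both the values of 1 time lay within 0.14 and the times were at least 0.56 apart. The second probe set of Ddx21 gave 0.77 in AMKO and 0.73 in Ctrl. Npm1, nucleophosmin, was at 12.18 in AMKO and 12.14 in Ctrl after 5FU, against 11.69 in AMKO and 12.05 in Ctrl at Basal, and differed by only 0.09 in Ctrl. Npm1 has processed pseudogenes that can share signal with it, so its values are uncertain. Its second probe set gave a difference of 0.60 in AMKO and 0.43 in Ctrl. Ddx21 averaged a difference of 0.86 with a standard error of 0.12 (limma adjusted p 0.0732), and Ncl one of 0.64 with a standard error of 0.098 (limma adjusted p 0.0764).

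**Figure D3:**
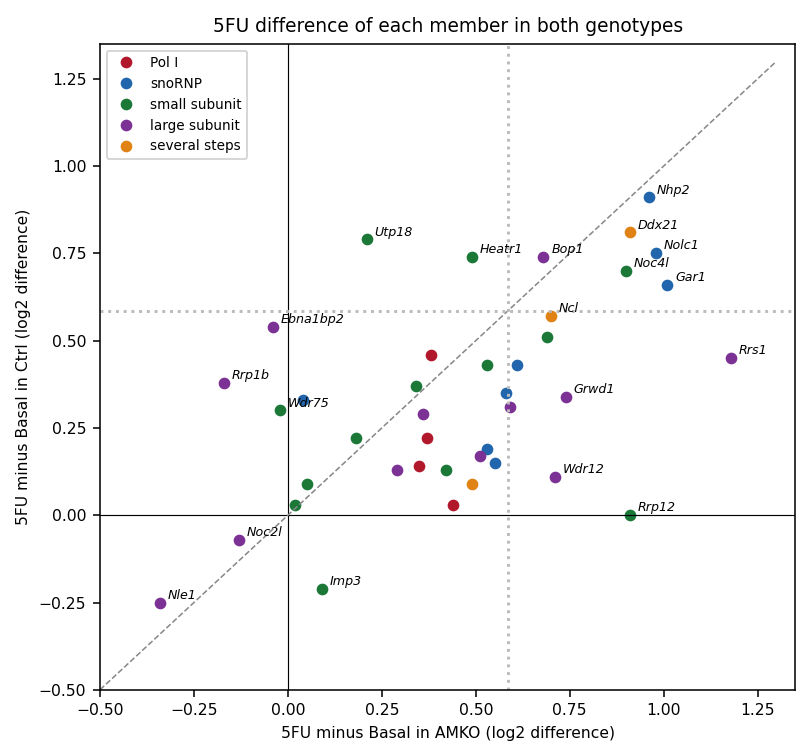
Log2 difference 5FU minus Basal of each member in AMKO (horizontal axis) and in Ctrl (vertical axis), coloured by class, with the line of equality dashed and 1.5-fold dotted. Most points lie above zero on both axes, Nhp2, Nolc1, Ddx21, Gar1, Noc4l and Bop1 lie past 1.5-fold on both axes, and Rrp12, Wdr12 and Rrs1 lie well to the right of the line of equality.

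Calls by limma depended on the setting for 7 members. With robust variance estimation in limma, 1315 genes passed, or 9.35% of all, and 7 members did, Nhp2, Ddx21, Nolc1, Ncl, Bop1, Noc4l and Gar1. The same 7 passed when genes below the 75th percentile were left out, where 15.7% of genes passed. Quantile normalization passed 947 genes, or 6.74%, and of the members Nhp2, Ddx21 and Ncl. No member passed in the fits that left out 1 array, nor without a trend, with averaged probe sets, with no floor or with median centring.

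In AMKO the class medians ran from 0.34 for small-subunit factors and 0.375 for Pol I to 0.595 for snoRNP proteins and 0.70 for the several-step proteins, and in Ctrl from 0.18 for Pol I to 0.57 for the several-step proteins. The ranges of the classes overlapped, except that in AMKO the Pol I members (0.35 to 0.44) lay below the several-step proteins (0.49 to 0.91). The snoRNP members ran from 0.04 (Nop56) to 1.01 (Gar1) in AMKO, and small-subunit members from -0.02 (Wdr75) to 0.91 (Rrp12). Large-subunit members ran in AMKO from -0.34 (Nle1) to 1.18 (Rrs1). In the direction of the differences on the deposited values, all 15 members of the Pol I, snoRNP and several-step classes were higher in both genotypes. So were 10 of 13 small-subunit and 8 of 12 large-subunit members. Polr1c and Nop56 changed direction under the alternatives above. After quantile normalization the AMKO differences of Wdr43, Imp3, Imp4 and Nob1 and the Ctrl difference of Wdr43 also fell below zero. Members higher then numbered 30 in AMKO and 33 in Ctrl, against 35 and 36 on the deposited values. In Ctrl the members named are thus not the full list of those no longer higher.

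**Figure D4:**
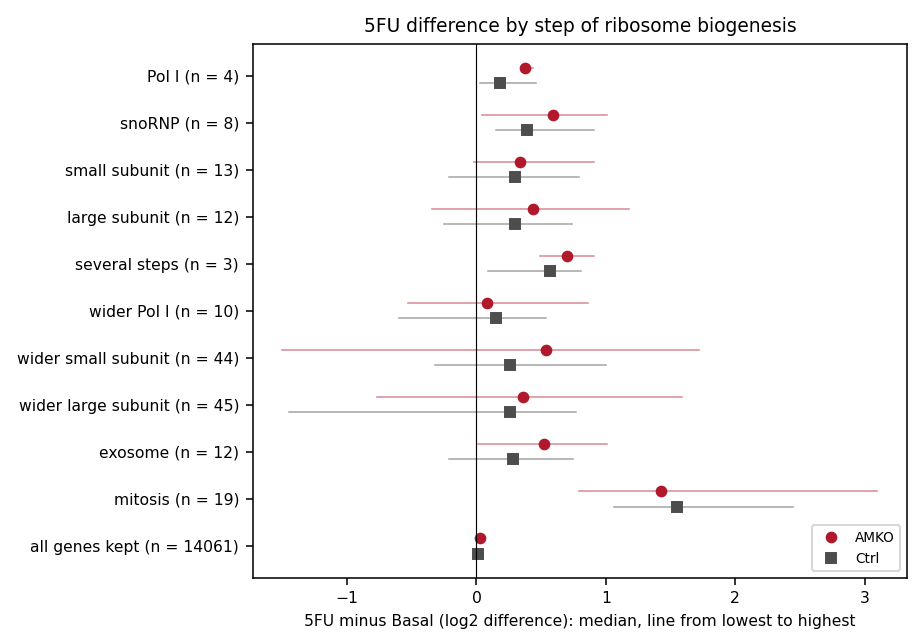
Median log2 difference 5FU minus Basal (horizontal axis, symbols) with the lowest and highest member (lines) for the 5 classes of members, the 4 wider lists of the same pathway, mitosis genes and all genes kept (symbol alone), in AMKO (red circles) and Ctrl (grey squares). The medians of the 5 classes of members lie between 0.18 and 0.70, above those of all genes (0.03 in AMKO and 0.01 in Ctrl) and below those of mitosis genes (1.43 in AMKO and 1.55 in Ctrl).

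Other genes of the pathway, 122 in a wider list of which 111 were kept, were also mostly higher after 5FU. Their median differences were 0.46 in AMKO and 0.23 in Ctrl, and of the 111 genes 96 were higher in AMKO, against 52.3% of all genes, and 84 in Ctrl, against 50.1%. Both 5FU arrays lay above both Basal arrays for 69 of them (62.2%, against 32.0% of all genes) and below for 5 (against 27.7%). Among the genes that reached the 75th percentile, 42.2% had both 5FU arrays above, 60.3% were higher in AMKO and 55.4% in Ctrl. Not every gene of the wider list reached that level. In the limma fit none passed, since no gene did. The largest difference common to both genotypes was that of Pno1, a small-subunit factor, at 8.20 in AMKO and 7.62 in Ctrl after 5FU, against 6.48 in AMKO and 6.62 in Ctrl at Basal. Exosc3, a subunit of the RNA exosome that trims rRNA precursors, was at 8.65 in AMKO and 8.52 in Ctrl after 5FU, against 7.76 in AMKO and 7.77 in Ctrl at Basal. Snu13, which binds box C/D snoRNAs, was at 10.10 in AMKO and 9.57 in Ctrl after 5FU, against 8.80 in AMKO and 8.83 in Ctrl at Basal. Utp15 was at 8.36 in AMKO and 8.28 in Ctrl after 5FU, against 7.59 in AMKO and 7.56 in Ctrl at Basal. At the lower end, Ppan, a large-subunit factor, was at 10.20 in AMKO and 9.21 in Ctrl after 5FU, against 10.97 in AMKO and 10.66 in Ctrl at Basal. Taf1c, a subunit of the Pol I selectivity factor, was at 7.81 in AMKO and 7.48 in Ctrl after 5FU, against 8.34 in AMKO and 8.03 in Ctrl at Basal. Gnl2 and Nat10 followed, each lower by 0.17 to 0.38. The wider Pol I list of 10 kept genes had the smallest medians, 0.08 in AMKO and 0.15 in Ctrl, and the 12 exosome genes had 0.525 in AMKO and 0.28 in Ctrl.

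Genes of mitosis were higher after 5FU by more. The 19 measured had medians of 1.43 in AMKO and 1.55 in Ctrl, and their summed signal was 14.09 in AMKO and 14.13 in Ctrl after 5FU, against 12.72 in AMKO and 12.67 in Ctrl at Basal. The part of cell division in the differences of the ribosome biogenesis factors was not tested.

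Whether the genotypes differed in these factors was read at each time. After 5FU, AMKO was above Ctrl for 34 of 40 members, against 59.0% of all genes, with a median difference of 0.16 against 0.06 over all genes. The 34 became 30 after quantile normalization, against 58.1% of all genes, and 32 after median centring, against 57.4%. Rrp12 was at least 2-fold higher in AMKO (1.07 on the log2 scale), the only member to be so, against 0.74% of all genes, and also the only one past 1.5-fold, against 4.15%. Bysl (0.50), Gar1 (0.48), Grwd1 (0.45), Imp3 and Rrs1 (0.44 each) and Noc4l (0.43) followed. Wdr75 and Dimt1 were lower in AMKO by 0.33 each. At Basal AMKO was above Ctrl for 24 of 40 members, against 49.4% of all genes, with a median difference of 0.045 against 0.00 over all genes. After median centring the sign turned, with 18 members above zero, against 37.0% of all genes, and a median of -0.035. The median of all genes was then -0.08, so that of the members still lay above it. Utp18 (0.62) and Ebna1bp2 (0.61) were at least 1.5-fold higher in AMKO, against 2.51% of all genes, and Dimt1 was at least 1.5-fold lower (-0.62), against 3.63% of all genes. The arrays of this comparison also enter the 5FU differences, and the Ctrl 5FU array holds the high markers of other blood cells and the Ctrl Basal array those of skeletal muscle.

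Across both times, Rrp12, Imp3 and Ebna1bp2 had both AMKO arrays above both Ctrl arrays, or 3 of 40, against 12.9% of all genes. Dimt1, Wdr43 and Wdr75 had both below, against 7.52% of all genes. The additive limma fit passed 0 genes for AMKO, or 0.0%, with 446 genes (3.17%) at an unadjusted p of 0.05, and its alternatives also passed 0. Dimt1 averaged -0.475 in AMKO with a standard error of 0.15, and Bysl 0.41 with a standard error of 0.14 (limma adjusted p 0.906 for each). These were the 2 members with an unadjusted p under 0.05.

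**Figure D5:**
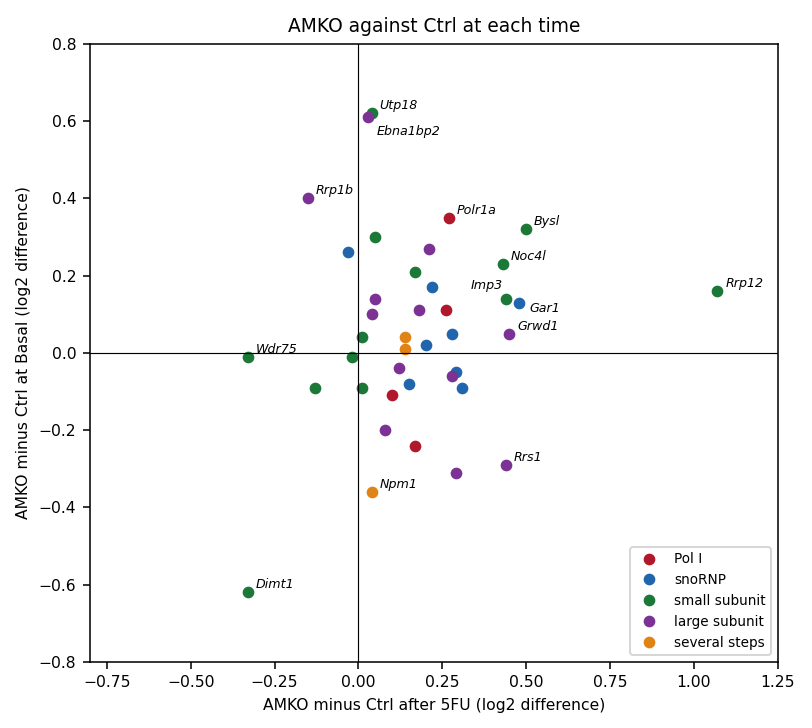
Log2 difference AMKO minus Ctrl of each member after 5FU (horizontal axis) and at Basal (vertical axis), coloured by class. Most points lie right of zero and on both sides of it vertically, Rrp12 lies farthest right at 1.07, and Dimt1 lies below zero on both axes.

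The 5FU difference in AMKO less that in Ctrl, for which 4 arrays allow no test, had a median of 0.155 over the members, against 0.05 over all genes. It was above zero for 26 of 40 members, against 55.2% of all genes and 60.2% of those that reached the 75th percentile. Rrp12 (0.91), Rrs1 (0.73) and Wdr12 (0.60) were the 3 members past 1.5-fold, or 7.5%, against 9.93% of all genes, and no member was 1.5-fold lower, against 7.6% of all genes. Utp18 and Ebna1bp2 had the lowest values (-0.58 each), Rrp1b followed, and in all 3 the Ctrl Basal array held the lowest of the 4 values.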

How the data were processed

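The values of 34472 probe sets, as deposited, were read as log2 signal because they lay between 1.99 and 13.43. How the authors corrected, summarized and normalized them is not given in the sources used here. Total RNA was prepared with RNeasy Micro columns and labelled with biotin, per the labels. Array medians were 5.44 (AMKO 5FU), 5.43 (Ctrl 5FU), 5.55 (AMKO Basal) and 5.47 (Ctrl Basal). The deposited log2 values were used as they stand.

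The platform annotation paired 23521 probe sets with 1 gene, 1814 with several and 9137 with none. Symbols were updated through Entrez identifiers with a RefSeq table of GRCm38.p6 for 23328 of them. A gene was represented by its probe set with the highest mean and kept when its highest value reached the median of all values (5.475), which left 14061 of 22180 genes. Differences between 2 arrays have no test. The average effects of 5FU and of AMKO came from limma 3.58.1 under R 4.3.3 (additive terms for genotype and treatment, eBayes with an intensity trend, 1 residual degree of freedom), adjusted by Benjamini-Hochberg over all genes. On simulated data with 200 of 14061 genes changed, by mixed sizes, the 5FU fit recovered 58.5% of those changed by 1 log2 unit and 2.3% of those changed by 0.5. The simulated errors were drawn from the moderated variances of the fit, shuffled over genes. These shares are thus not the power of the fit on the real arrays. There, 276 genes were at least 2-fold higher and 279 at least 2-fold lower in both genotypes, and the fit passed 0. The number of arrays limits the precision. The named genes were all members, up to 4 genes at each end of the wider list, and markers in their listed order. Members, classes, lists and tests were chosen with earlier results of these data known. The 75th-percentile comparison of shares and the promoter motifs were chosen after the values were seen. Alternatives were quantile normalization, median centring, averaged probe sets, other floors (none, or the 75th percentile, 7.32), a 1.5-fold size, robust or trend-free estimation in limma, and leaving out each array with treatment alone in the model, where the lone array of a treatment is assumed to vary like the others.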

Additional observations from a re-analysis of the deposited data

Results flagged for a closer look

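In 4 members the 5FU differences of the genotypes had opposite signs, and with 1 array in a group the difference between them was not tested. The log2 differences in AMKO and Ctrl were -0.02 and 0.30 for Wdr75, 0.09 and -0.21 for Imp3, -0.04 and 0.54 for Ebna1bp2, and -0.17 and 0.38 for Rrp1b.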

How the results depend on the processing

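Scaling moved the size of the AMKO difference. Its member median was 0.345 after quantile normalization and 0.60 after median centring, which raised the median of all genes from 0.03 to 0.15. Of the 40 members 30 and 37 were then higher, against 51.6% and 62.5% of all genes. The Ctrl median stayed between 0.226 and 0.36 over all settings. Members at least 2-fold higher in AMKO numbered 1 after quantile normalization, 7 after median centring and 1 with averaged probe sets. The shares of all genes were 3.96%, 6.82% and 4.46%. With 1.5-fold in place of 2-fold, 14 members were higher in AMKO, 8 in Ctrl, 2 in AMKO over Ctrl at Basal and 3 in the difference of the 5FU differences. AMKO minus Ctrl at Basal was above zero for 18 members after median centring, against 37.0% of all genes, with a median of -0.035, against -0.08 over all genes. Imp4 in AMKO reached -0.0075 after quantile normalization, and Nop56 in Ctrl -0.0167 with averaged probe sets. Members with both 5FU arrays above both Basal arrays numbered 24 to 32 over the settings added after the data were examined, and those with both below numbered 1 after median centring. The share of all genes with these patterns was not counted under quantile normalization or median centring. These counts thus have no such share beside them. In the limma fit for 5FU, 947, 161, 1293 and 1315 genes passed with quantile normalization, median centring, the 75th-percentile floor and robust estimation, and 3, 0, 7 and 7 members. Leaving out 1 array passed between 0 and 461 genes (461 without AMKO 5FU) and 0 members. Of 525 repeats for single genes and classes, 2 reversed in sign from a value beyond 0.1 on the log2 scale. Of the rest, 414 stayed within 0.1 and 109 moved by more. Changes of sign from smaller values, such as those of Polr1c and Wdr43, are counted among the rest. The 2 are thus not all the changes of sign. The repeats with other floors could not differ, since all 40 members reached both floors. Averaging probe sets could change only the 5 members with several, and the classes that hold them. The 414 is therefore no measure of how stable the values are under rescaling. No paired analysis was possible because each group has 1 array and thus no replicate number to pair by, beyond the genotype term that the limma fit already holds.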
